A study of Mus musculus with 12 samples.

Results

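Livers of mice fed CDAHFD, a choline-deficient, L-amino acid-defined diet with 60 kcal% fat and 0.1% methionine, were compared after 2 weeks and after 1 week of feeding. CDAHFD is used to induce steatohepatitis, a fatty and inflamed liver. The comparison rests on 4 of the 12 arrays of the series, chosen by their titles: 2 arrays of week 2 (mice aged 8 weeks) against 2 arrays of week 1 (mice aged 7 weeks). All mice were C57BL/6NJcl males, and the control mice used beside them received the chow CE-2 for the same times. Livers of both diets at week 6 (mice aged 12 weeks), 2 arrays each, served as a later comparison. Liver RNA was labelled with Cy3 and hybridised to one-colour Agilent arrays, 1 sample per array. The question was which genes and pathways still move between the first and the second week.

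Choline is needed to make phosphatidylcholine, which hepatocytes use to coat the lipoprotein particles that carry triglyceride out of the liver. Without it, and with little methionine as a substitute source, fat stays in hepatocytes as lipid droplets coated by perilipins and CIDE proteins. Macrophages that take up lipid from such tissue are known to acquire a programme that includes Trem2, Gpnmb and Spp1, and stellate cells lay down collagen. Hepatocytes in diseased liver commonly lose some of their secretory and detoxifying genes.

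Levels are given as log2 of the deposited signal minus the array's 75th percentile, so that 0 is a bright gene and a step of 1 is a doubling. Differences are week 2 minus week 1 in log2 units, with the standard error (SE) of the fit, and n = 2 arrays per group throughout. A gene is said to have risen or fallen only where limma gave a Benjamini-Hochberg adjusted p under 0.05 over all 13732 genes tested. Nothing in the labels states that the replicates of a group came from different mice, so the p-values describe array-to-array spread that could be technical. The 4 arrays lay on 1 slide, with the week-1 pair in column 2 and the week-2 pair in column 4, so slide column and week cannot be told apart. For weeks 1 and 2, the control arrays used are 3, since replicate 1 of control week 1 was left out. Between 46.0 and 49.7% of probes passed the background flag on these 4 arrays. Replicate differences had an SD over genes of 0.30 at week 1 and 0.29 at week 2, and the small number of arrays limits the precision.

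Few genes were called between the 2 weeks, which does not show that the others stayed the same. Of 13732 genes, 33 passed the test (0.24%), 18 higher and 15 lower at week 2, and 1487 had an unadjusted p under 0.05. The median of all genes was -0.0039. For 11351 genes (82.7%) the 95% interval of the difference lay within 2-fold in either direction, while 251 genes (1.83%) had a fitted difference of at least 2-fold. The median SE was 0.18, with 5th and 95th percentiles of 0.11 and 0.433. The number of calls rested on single arrays. Without replicate 1 of CDAHFD week 2 limma called 0 genes, and without replicate 2 of that group 8. Without replicate 1 of CDAHFD week 1 it called 15 genes, and without replicate 2 of that group 1. When only the 4 arrays of the comparison set the spread, 386 genes passed, and all 33 were among them.

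**Figure D1:**
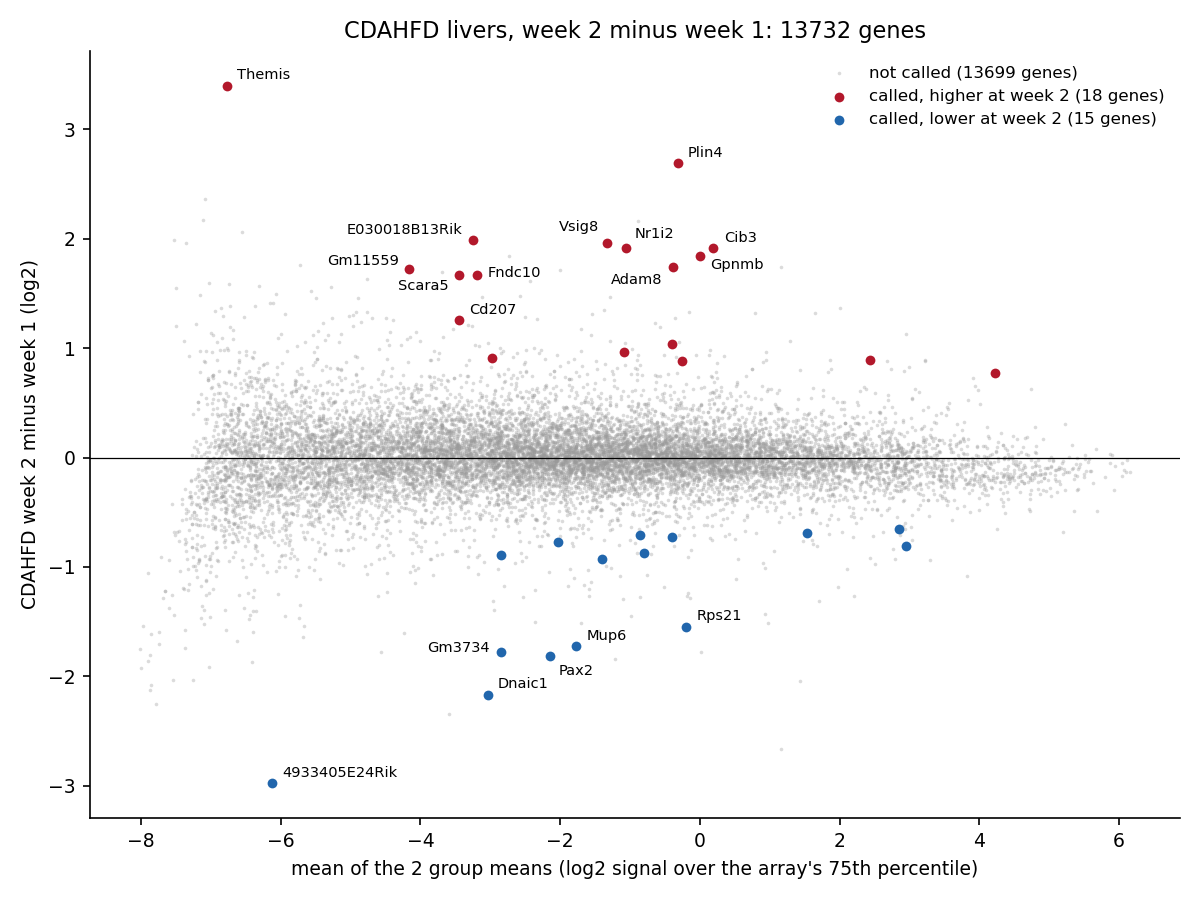
Difference between CDAHFD week 2 and week 1 (log2, vertical axis) against mean level (log2 over the array's 75th percentile, horizontal axis) for 13732 genes, with the 18 genes called higher in red and the 15 called lower in blue. The called genes lie at the edge of a cloud centred near 0, and names are given where the difference exceeded 1.2 in size.

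Among the genes that rose was Gpnmb, the 1 called member of the lipid-associated macrophage list, beside Adam8, Mfge8, Cd207 and Vsig8. Gpnmb, a lysosomal glycoprotein of such macrophages, stood at -0.51 and -1.33 at week 1 and at 0.76 and 1.08 at week 2. It rose 3.59-fold (1.84 ± 0.27 SE, adjusted p = 0.033), and both week-2 arrays lay above both week-1 arrays. Control livers were not above background and read -9.19 on the week-1 array used and -8.67 and -8.98 at week 2. Adam8, a membrane metalloprotease of myeloid cells, read -0.94 and -1.57 at week 1 and 0.31 and 0.65 at week 2. It rose by 1.74 ± 0.27 (adjusted p = 0.044).

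Mfge8 encodes a secreted protein that bridges dying cells to phagocytes. Its level went from 2.12 and 1.84 to 2.91 and 2.84, a rise of 0.89 ± 0.12 (adjusted p = 0.027). The groups did not overlap, and in control livers the gene fell by 0.73 (adjusted p = 0.031). Cd207, which encodes langerin, a lectin of some dendritic cells and macrophages, rose by 1.26 ± 0.19 (adjusted p = 0.033), from -4.21 and -3.94 to -2.79 and -2.86. Vsig8, an immunoglobulin-domain membrane protein, rose 3.89-fold (1.96 ± 0.19, adjusted p = 0.0044). Its values were -2.22 and -2.40 at week 1 and -0.36 and -0.34 at week 2, against -8.41 to -8.92 on the control arrays used, where it was not above background.

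Themis, a regulator of T-cell receptor signalling, was not well above background on either week-1 array and was so on both week-2 arrays. Its values were -8.12 and -8.83 at week 1 and -5.13 and -5.01 at week 2, so the fold is a bound: at least 5.14-fold higher at week 2 (limma adjusted p = 0.0044). For genes below background on all arrays of 1 group, the bound sets the brighter group against the lowest signal that counted as above background. With normexp background correction the difference was 0.846 in log2 units, less than the bound of 2.36. A further Themis probe was below background on all 4 arrays. The T-cell receptor gene Cd3e differed by -0.14 ± 0.19 (adjusted p = 0.88), and among 23 measured T and NK cell markers none was called and the median was -0.04.

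Plin4, which encodes a perilipin of lipid droplets, was the 1 called gene of the lipid metabolism lists. It went from -1.59 and -1.73 at week 1 to 1.25 and 0.802 at week 2. It rose 6.45-fold (2.69 ± 0.36, adjusted p = 0.031). It also rose in control livers, by 2.77 (adjusted p = 0.016), from -4.59 on the week-1 array used to -2.34 and -1.32, and the change under CDAHFD differed from that under control by -0.08 ± 0.57 SE (adjusted p = 0.97). The level in CDAHFD livers lay above the control arrays of the same week in both weeks.

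Among hepatocyte genes, Nr1i2, the nuclear receptor PXR that senses drugs and bile acids, rose 3.77-fold (1.92 ± 0.28, adjusted p = 0.032). It stood at -2.15 and -1.88 at week 1 and at -0.000674 and -0.20 at week 2. Its control change of 0.99 did not pass (adjusted p = 0.16). The mRNA of Cyp3a11, a classical PXR target, differed by 0.14 ± 0.18 (adjusted p = 0.86). Fmo5, a flavin monooxygenase of hepatocytes, rose by 0.77 ± 0.11 (adjusted p = 0.031), from 3.74 and 3.93 to 4.66 and 4.55, and its 2 further probes read differences of 1.02 and 1.15. Rhbg, an ammonium transporter of pericentral hepatocytes, rose by 0.88 ± 0.11 (adjusted p = 0.023), from -0.63 and -0.77 to 0.12 and 0.23.

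The other genes that rose had less clear roles in liver. Cib3, a calcium-binding protein, rose by 1.91 ± 0.23 (adjusted p = 0.019), from -0.39 and -1.14 to 1.19 and 1.1. Scara5, a scavenger receptor that binds ferritin, rose by 1.67 ± 0.24 (adjusted p = 0.031), from -4.16 and -4.40 to -2.72 and -2.52, while a further probe of it read 0.68. Fndc10 rose by 1.67 ± 0.16 (adjusted p = 0.0044), and a further probe of it read 1.76. Raet1e, a ligand of the NKG2D receptor, rose by 0.97 ± 0.12 (adjusted p = 0.023). Its week-2 levels, -0.605 and -0.602, were still below the control arrays of that week (0.14 and 0.34). Wipf3 (1.04), Gabra3 (0.91) and the predicted or clone-named genes E030018B13Rik (1.99) and Gm11559 (1.72) completed the 18.

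Of the genes that fell, Mup6 belongs to the major urinary proteins, which the male liver secretes in quantity. Its level went from -0.96 and -0.87 at week 1 to -2.83 and -2.45 at week 2, a fall of 3.30-fold (-1.72 ± 0.17, adjusted p = 0.0044). Genes of that family are nearly identical in sequence, so the probe may read several of them. Pax2, a developmental transcription factor, fell by 1.82 (SE 0.21, adjusted p = 0.016), from -1.54 and -0.93 to -3.01 and -3.10. The control arrays used read between 0.23 and 0.63. Dnaic1, a dynein chain of motile cilia, fell by 2.17 (SE 0.19, adjusted p = 0.0044), from -2.17 and -1.74 to -3.95 and -4.29. The clone-named 4933405E24Rik was well above background only at week 1 and was at least 5.74-fold lower at week 2 (limma adjusted p = 0.029), though normexp gave -0.883 in log2 units. The predicted gene Gm3734 fell by 1.78.

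Rps21, a protein of the small ribosomal subunit, fell by 1.55 (SE 0.13, adjusted p = 0.0044), from 0.49 and 0.655 to -0.995 and -0.949. It also fell in control livers, by 0.74 (adjusted p = 0.038). Rbm8a, of the exon junction complex, fell by 0.93, Cebpz by 0.89, and the thioredoxin of mitochondria, Txn2, by 0.66 (adjusted p = 0.031 for each in limma).

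Stard13, Fermt2, Fbxo21, Mrps14 and Rpl31-ps12 fell by 0.78, 0.73, 0.69, 0.71 and 0.81. Further probes did not all read alike: those of Mrps14 read 0.17 and 0.36, and that of Rpl31-ps12 read -0.09. Those of Fermt2 and Stard13 read -0.56 and -0.45. Among 30 ribosome biogenesis genes none was called, the median was 0.04, and the 95% intervals of 29 lay within 2-fold.

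**Figure D2:**
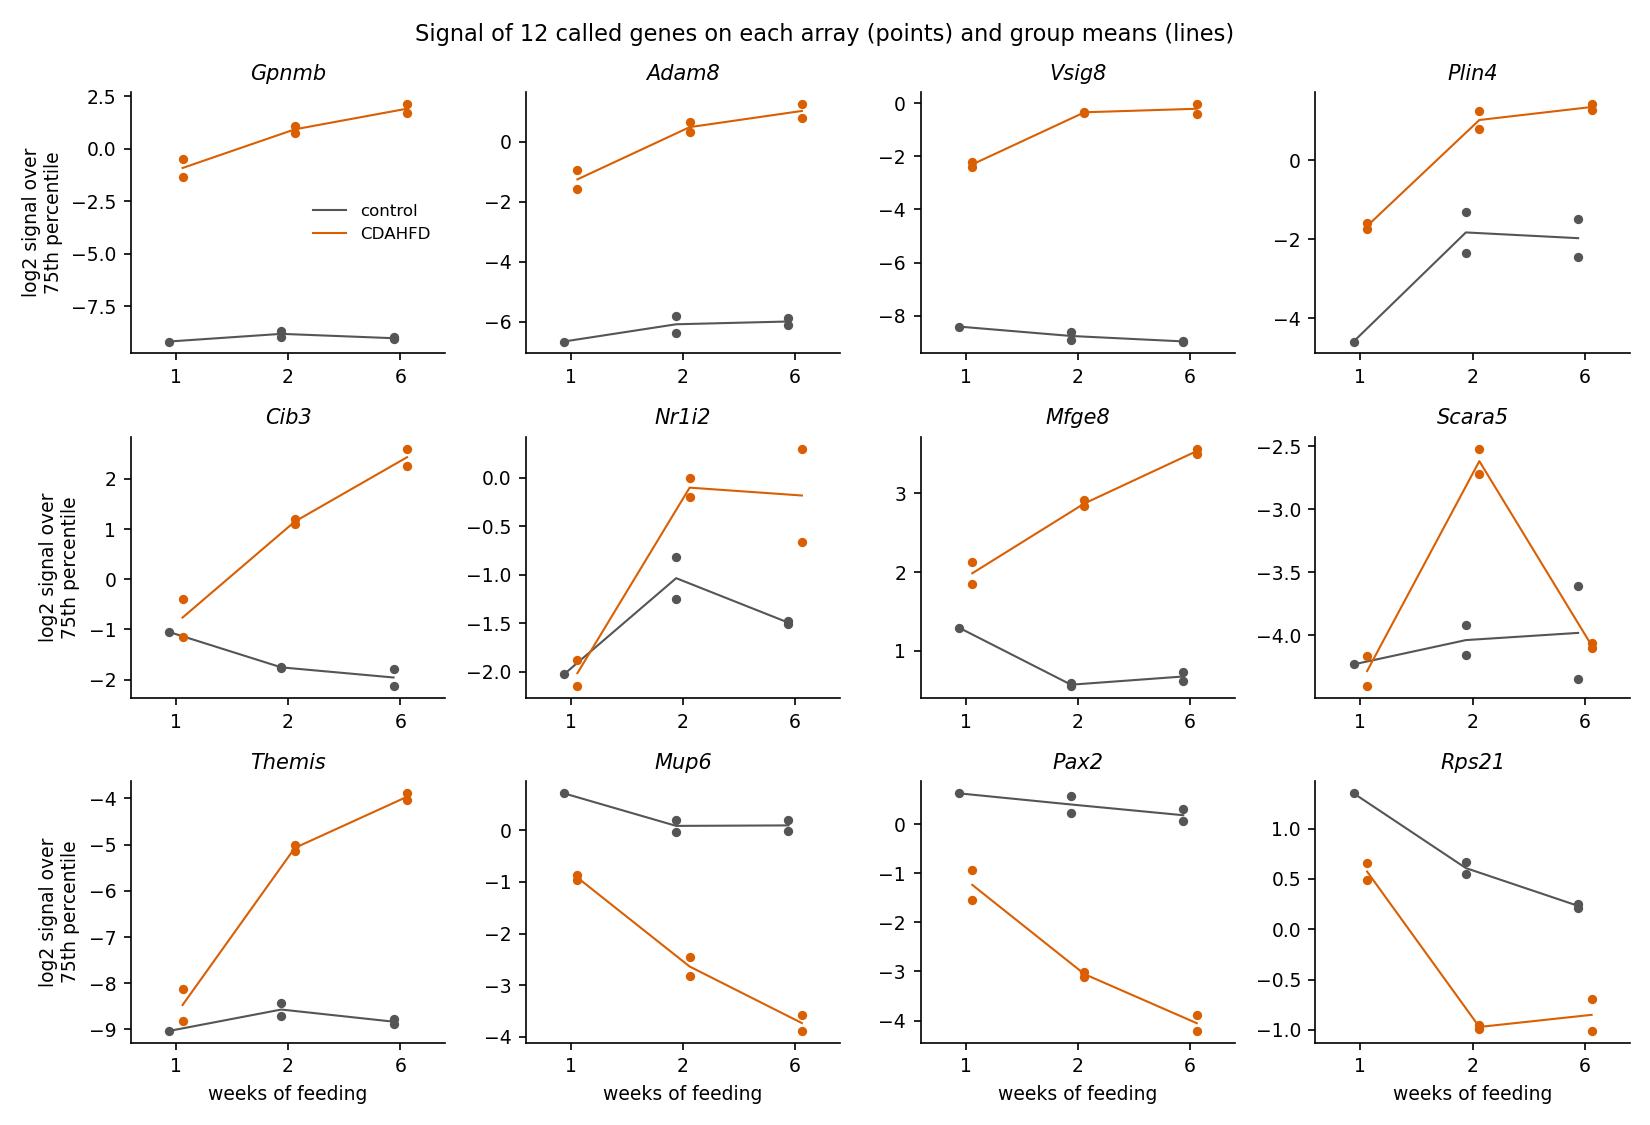
Level of 12 called genes (log2 over the array's 75th percentile, vertical axis) on each array (points) at 1, 2 and 6 weeks (horizontal axis) in control (grey) and CDAHFD livers (orange), with lines through the group means; control week 1 shows 1 array. Both week-6 CDAHFD arrays lay above both week-2 arrays for Gpnmb, Adam8, Plin4, Cib3, Mfge8 and Themis. They lay below them for Mup6 and Pax2, and Scara5 was back near its week-1 level. The week-6 arrays lay on another slide.

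To look at pathways, 47 gene lists, written with earlier results of these data known, were described by counts and medians. Since few genes passed the test, a wider description was added after the values were seen: genes of which both week-2 arrays lay beyond both week-1 arrays, by at least 1.5-fold. Over all genes, 501 were apart and higher in this sense (3.65%) and 486 apart and lower (3.54%). It is a description and no test. Only 5 of the 47 lists held a called gene, and 28 of the 33 called genes were in no list. The medians of 39 lists lay within 0.25 of 0.

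Lipid-associated macrophage markers had the highest median of the 47 lists. Of 22 measured members, 1 was called (Gpnmb) and 13 were apart and higher, while 0 were apart and lower. The list median was 0.70, against -0.0039 over all genes, and 21 of the 22 differences were above 0. Trem2, a lipid-sensing receptor, read 0.37 and -0.13 at week 1 and 1.44 on both week-2 arrays, a difference of 1.32 ± 0.22 that missed the threshold (adjusted p = 0.053). Spp1, which encodes osteopontin, differed by 1.04 (adjusted p = 0.14), the lipase Lpl by 0.96 (adjusted p = 0.11) and the actin-capping Capg by 0.81 (adjusted p = 0.082).

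The markers were already high at week 1. The median level over the list was 0.45 and -0.11 on the week-1 arrays, 0.91 and 1.16 on the week-2 arrays, and -2.19 to -2.58 on the control arrays used. The 2 week-1 arrays stood well apart: the list median of the differences was 0.50 without replicate 2 of week 1 and 0.943 without replicate 1. In whole liver, more cells of a type and more RNA per cell cannot be told apart. General monocyte and macrophage markers had a median of 0.31, with 6 of 27 apart and higher and 0 called. It was 0.134 without replicate 2 of CDAHFD week 1 and 0.522 without replicate 1. Cd68 differed by 0.55 and Adgre1, a surface receptor of mature macrophages, by 0.20 (adjusted p = 0.28 and 0.91). Lysosomal genes had a median of 0.24, with 6 of 35 apart and higher and 0 called; the protease Ctsd differed by 0.49 (adjusted p = 0.11).

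Markers of other immune cells had medians near or below 0. Of 15 Kupffer cell markers, those of the resident macrophages, 13 were below 0 and 2 apart and lower. Their median was -0.14, or -0.27 without replicate 1 of CDAHFD week 1, and Timd4 differed by -0.99 (adjusted p = 0.44). B and plasma cell markers had a median of -0.39, with 3 of 12 apart and lower and 1 apart and higher. It was -0.189 without replicate 1 of CDAHFD week 1 and -0.0891 with normexp. Neutrophil markers had a median of -0.21 with 3 of 12 apart and lower and 1 apart and higher; the calprotectin genes S100a8 and S100a9 differed by -0.50 and -0.62 (adjusted p = 0.31 and 0.20). None of these 3 lists held a called gene, nor did the 16 dendritic cell markers (median 0.05).

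Lipid droplet and uptake genes had a median of 0.27, with 1 of 26 called (Plin4), 8 apart and higher, and 0 apart and lower. Plin5, a perilipin that ties droplets to mitochondria, went from 2.38 and 2.39 to 3.68 and 3.35 (1.13 ± 0.20, adjusted p = 0.073). Cidec, which enlarges droplets by fusion, went from 1.40 and 0.57 to 2.38 and 2.23 (1.32 ± 0.31, adjusted p = 0.14). The fatty acid transporter Cd36 differed by 1.06 (adjusted p = 0.13). Plin2, the main perilipin of fatty hepatocytes, differed by 0.49 ± 0.22 (adjusted p = 0.47). Lipid-associated macrophage markers and this list share Fabp5, Lpl and Plin2.

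**Figure D3:**
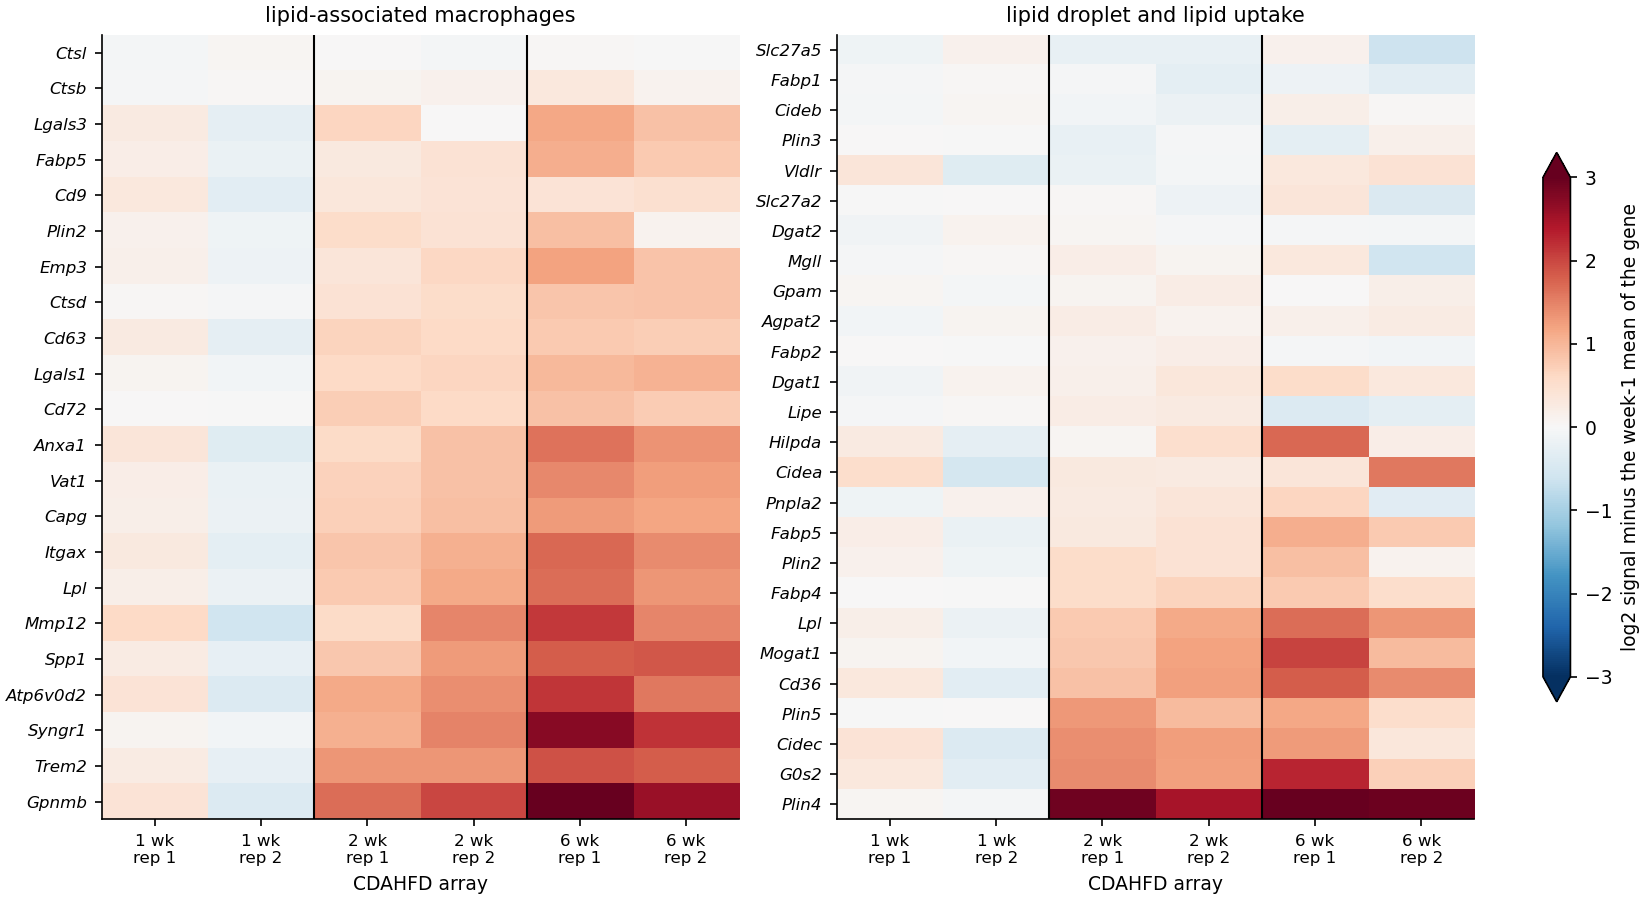
Level of each measured member of the lipid-associated macrophage list (left) and of the lipid droplet and uptake list (right) on the 6 CDAHFD arrays, as log2 signal minus the gene's mean over the 2 week-1 arrays (colour, red higher, blue lower, cut at 3). In the left panel 13 of 22 members were apart and higher at week 2, and in the right panel 8 of 26; the week-6 arrays lay on another slide.

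Fat-making and fat-burning genes showed no common direction. Sterol synthesis genes had a median of -0.24 with 20 of 25 below 0, but 0 were called and 0 were apart by 1.5-fold, and the intervals of 21 lay within 2-fold. In fatty acid synthesis the median was -0.00675 over 19 genes. Scd1, the desaturase, read -1.99 and -2.15 at week 1 and -2.04 and -0.90 at week 2, against 4.09 to 4.54 on the control arrays used, so that it was already far below control livers at week 1. Thrsp, a lipogenic regulator, differed by 1.74 ± 0.57 and Elovl3, an elongase, by -1.21 ± 0.44 (adjusted p = 0.31 and 0.35). Fatty acid oxidation genes had a median of 0.15 with 5 of 30 apart and higher. Ppara differed by -0.00312 ± 0.232 and Cpt1a by 0.25 ± 0.21. Apolipoprotein and lipoprotein assembly genes had a median of -0.07 with 0 of 20 apart; Apob and Mttp differed by -0.06 and -0.04. Choline, methionine and one-carbon genes, those the diet addresses directly, had a median of -0.07 with 0 of 29 apart and 0 called.

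Hepatocyte identity genes differed little between the 2 weeks. Of 25 genes, Nr1i2 alone was called, and the median was -0.09. Albumin (Alb) differed by -0.13 ± 0.14 and Hnf4a by 0.02 ± 0.11, and the intervals of 21 of the 25 lay within 2-fold. Complement and coagulation genes had a median of -0.20 with 31 of 34 below 0, yet the intervals of 33 lay within 2-fold and 0 were called. Urea cycle and amino acid genes (median -0.04), oxidative phosphorylation (-0.07) and proteasome genes (-0.04) likewise held no call, and their intervals lay within 2-fold for 29 of 30, 31 of 33 and 28 of 28 genes.

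Genes of the male, growth hormone-dependent programme had a median of -0.35, with 5 of 21 apart and lower, 1 apart and higher and 0 called. Hsd3b5, a steroid dehydrogenase of male liver, read 2.34 and 2.66 at week 1 and -0.47 and 0.14 at week 2. Its difference of -2.66 had an SE of 1.08 (adjusted p = 0.43). The 2 arrays of CDAHFD week 6, which enter the shared error estimate, read -7.42 and -3.32. Slco1a1, an organic anion transporter, differed by -1.27 ± 0.24 and Cyp7b1, an oxysterol hydroxylase, by -0.79 ± 0.17 (adjusted p = 0.091 and 0.11). Cytochrome P450 genes had a median of -0.17 with 6 of 28 apart and lower and 1 apart and higher. Lower were Cyp2c29 and Cyp2c38, among others (-0.73 and -0.92, adjusted p = 0.087 and 0.11). Control livers had a median change of -0.18 for the P450 list over the same week, with 1 week-1 array used. The median difference between the changes of the 2 diets was 0.02. For the growth hormone list these medians were 0.09 and -0.26. In bile acid synthesis and transport, 4 of 22 were apart and lower and 1 apart and higher. Among the lower was Cyp7a1, the rate-limiting enzyme (-0.91, adjusted p = 0.37).

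No stress list held a called gene. The integrated stress response list had a median of -0.33, with 3 of 19 apart and lower and 0 apart and higher. The median was -0.0894 without replicate 1 of CDAHFD week 2 and -0.156 with normexp. Fgf21, a hormone that the stressed liver secretes, read 1.00 and -0.11 at week 1 and -1.34 and -0.24 at week 2 (-1.24 ± 0.51, adjusted p = 0.42). Trib3 differed by -1.32 ± 0.62 (adjusted p = 0.52), and the master regulator Atf4 by -0.35 ± 0.12 (adjusted p = 0.31). Endoplasmic reticulum chaperones had a median of -0.20 with 18 of 22 below 0; Hspa5, which encodes BiP, differed by -0.20. NRF2 target and heat shock genes had medians of -0.01 and 0.05, and clock genes ranged from -1.31 (Nr1d1) to 0.98 (Lpin1) around a median of 0.09, all without a call.

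Of the matrix and growth lists, 1 gene was called, Adam8. Fibrillar matrix genes had a median of 0.10, with 0 of 30 apart and higher and 3 apart and lower. The median was -0.0905 without replicate 2 of CDAHFD week 1 and 0.306 without replicate 1. Col1a1 read 0.65 and 0.35 at week 1 and 0.20 and 0.52 at week 2 (-0.14 ± 0.18, adjusted p = 0.86), Col3a1 differed by 0.02 ± 0.19, and the myofibroblast actin Acta2 by -0.31 ± 0.29. The matrix inhibitor Timp1 differed by 0.07 ± 0.26, and matrix proteases and inhibitors had a median of 0.32, with 4 of 20 apart and higher and 2 apart and lower. It was 0.488 without replicate 1 of CDAHFD week 1. Of 36 mitosis genes 35 were above 0, with a median of 0.27, but 1 was apart and higher, 1 apart and lower, and 0 were called, and the intervals of 10 lay within 2-fold. The median was 0.415 without replicate 1 of CDAHFD week 2. In control livers the median change of the mitosis genes was 0.18, with 1 week-1 array used and list medians of only -6.24 to -5.94. The median difference between the changes of the 2 diets was 0.13. Mki67 differed by 0.04 ± 0.30. DNA replication genes had a median of 0.15 with 3 of 28 apart and higher, and of 0.0254 without replicate 1 of CDAHFD week 2. The cell cycle inhibitor Cdkn1a went from -2.21 and -2.18 to -1.17 and -1.27 (0.98 ± 0.22, adjusted p = 0.12). Inflammatory cytokines had a median of -0.000847 over 23 genes; Ccl2 and Tnf differed by -0.25 and -0.000847, and Il1b by -0.81 (adjusted p = 0.20). Interferon-induced genes had a median of 0.01 with 0 of 32 apart. The lists not described here held 1 called gene, Rhbg, and their medians lay between -0.13 for endothelium and 0.24 for p53 targets.

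**Figure D4:**
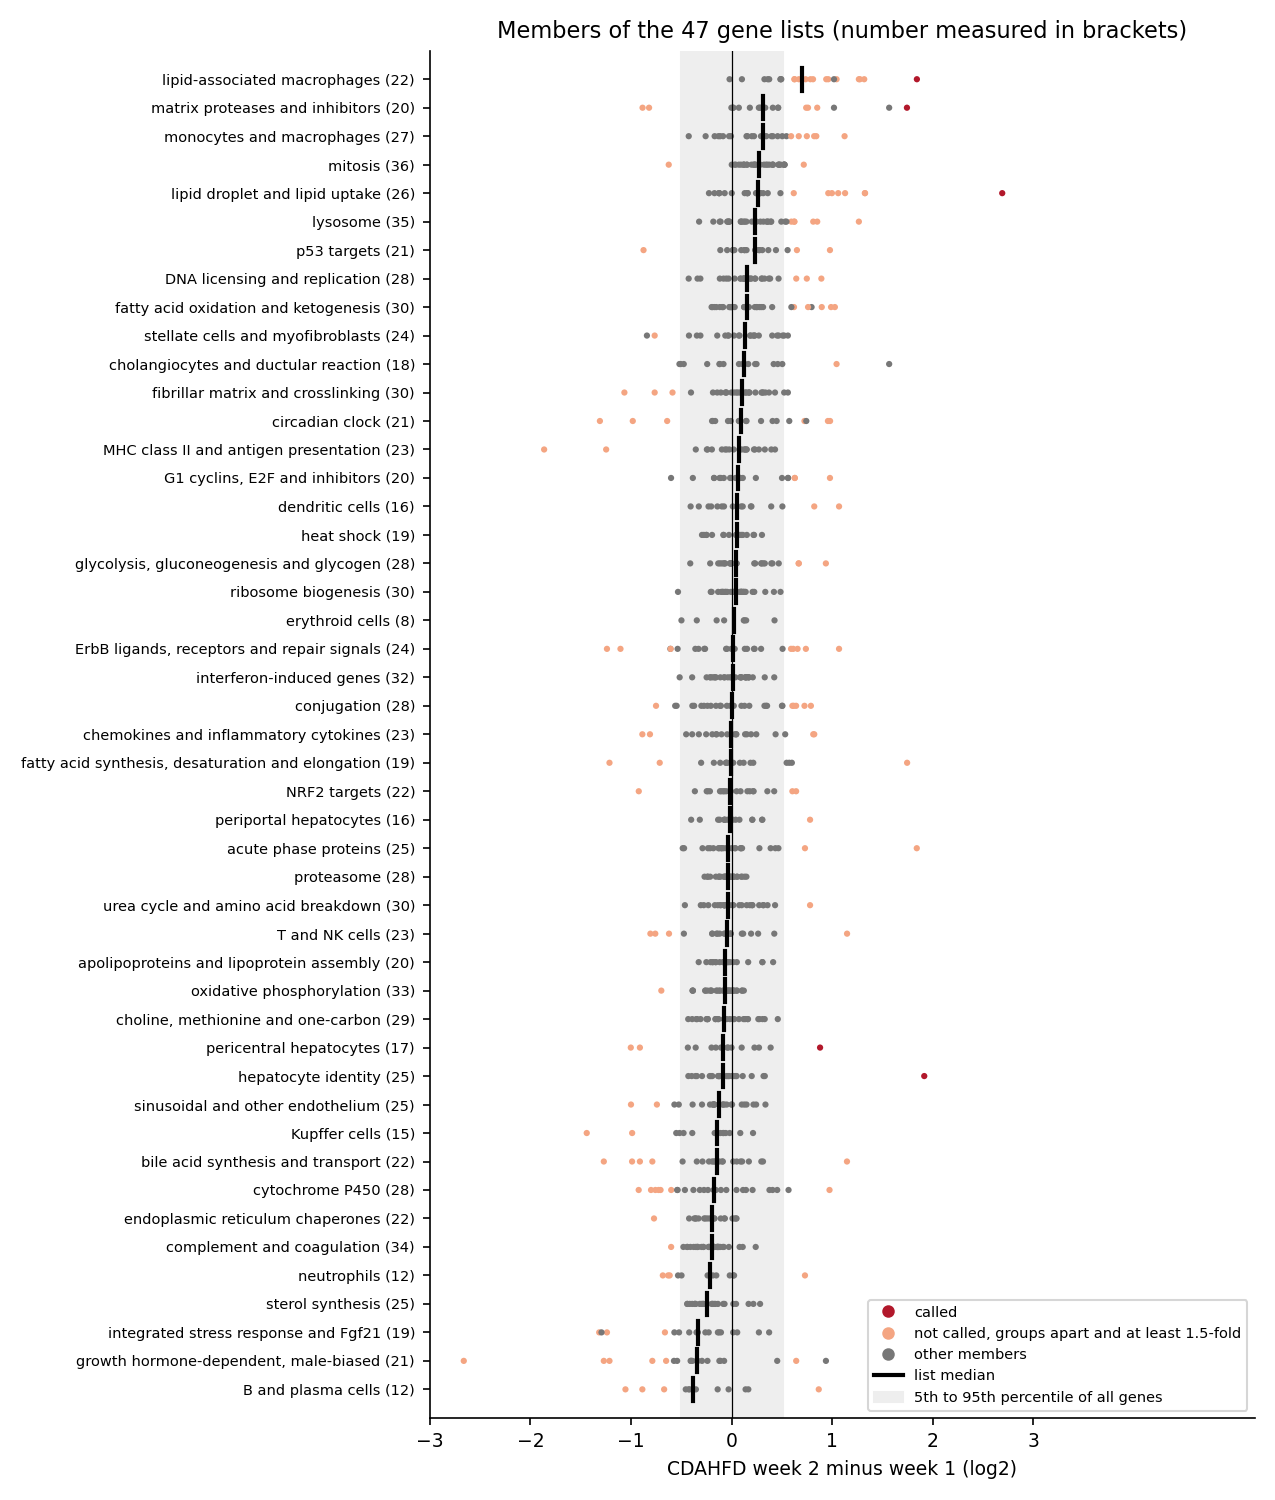
CDAHFD week 2 minus week 1 (log2, horizontal axis) of every measured member of the 47 gene lists (rows, ordered by median), with called genes in red, uncalled genes whose groups lay apart by at least 1.5-fold in orange, others in grey, list medians as bars and the 5th to 95th percentile of all genes shaded. Lipid-associated macrophage markers (median 0.70) are at the top and B and plasma cell markers (median -0.39, or -0.0891 with normexp) at the bottom.

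Control livers over the same week served as a background. The replicate pair of control week 1 differed with an SD of 0.88, the other pairs with 0.29 to 0.49. That SD does not show which array of the pair departs. The control change rests on 1 week-1 array, replicate 2, which was assumed to vary like the other groups. Replicate 1, dim in one corner, was left out. In limma 404 genes passed (2.94%), 297 higher and 107 lower, and with that array kept 1122 did. The change under CDAHFD differed from the control change for 75 genes (0.546%), 28 higher and 47 lower, and with that array kept for 180.

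Of the 33 genes called under CDAHFD, 8 also differed from the control change: Cib3, Fmo5, Fndc10, Gm11559, Mfge8, Rhbg, Themis and Vsig8. They rose under CDAHFD with a change that exceeded that of control livers, by between 1.16 (Fmo5) and 2.62 (Cib3) in log2 units for the 6 that were above background in control livers. Themis and Vsig8 were not above background on any control array used, so their values there have no size. In control livers 5 of the 33 were also called, among them E030018B13Rik, Plin4 and Rps21, which moved the same way, and Mfge8, which moved the opposite way. The changes rest on different arrays, but the single control array of week 1 enters every value of the second.

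The livers of week 6, on another slide, gave a comparison with arrays that the week-2 difference did not use. There, CDAHFD minus control passed for 5657 genes (41.2%), 3443 higher (25.1%) and 2214 lower (16.1%). Genes were tested only if detected in CDAHFD livers at week 1 or week 2. Those detected in control livers alone are therefore missing from these shares. Of the 33 genes called between week 1 and week 2, 29 (87.9%) had a diet difference of the same sign at 6 weeks. It passed in that direction for 15 of the 18 that rose and for 13 of the 15 that fell. The 2 comparisons share the error estimate of the fit but no array. The share of genes with the same sign was not computed over all genes tested, so the 87.9% stands without a background.

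Of the 501 genes that were apart and higher at week 2, 357 (71.3%) were called higher under CDAHFD at 6 weeks and 13 (2.59%) lower. Of the 486 that were apart and lower, 206 (42.4%) were called lower and 42 (8.64%) higher. The background shares were those given over all genes, 25.1% and 16.1%. Of the 22 lipid-associated macrophage markers, 21 were called higher at 6 weeks, with a median difference of 3.19. That list was written with earlier results of these data known, so this count is a description and no independent support.

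For 4 called genes the diet difference at 6 weeks had the other sign. Raet1e was lower under CDAHFD than in control livers at 6 weeks, by 1.34 (adjusted p = 2.56e-05), as it was at week 1 and week 2 (-1.46 and -0.85), and its CDAHFD level at week 6 was -0.63 and -0.55. Scara5 read -4.10 and -4.06 in CDAHFD livers at 6 weeks against -4.35 and -3.61 in control livers, a difference of -0.10 (adjusted p = 0.76). Dnaic1, at -3.84 and -3.80 in CDAHFD livers at week 6, differed from control livers by 0.33 (adjusted p = 0.20) and E030018B13Rik by -0.53 (adjusted p = 0.17). Gpnmb, Vsig8 and Themis were not above background in control livers at 6 weeks and were at least 405-fold, 93.2-fold and 6.94-fold higher under CDAHFD (limma adjusted p = 4.3e-08, 2.12e-08 and 4.41e-06). Gm3734, Pax2 and Mup6, which had fallen, were lower by 4.70, 4.23 and 3.83.

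**Figure D5:**
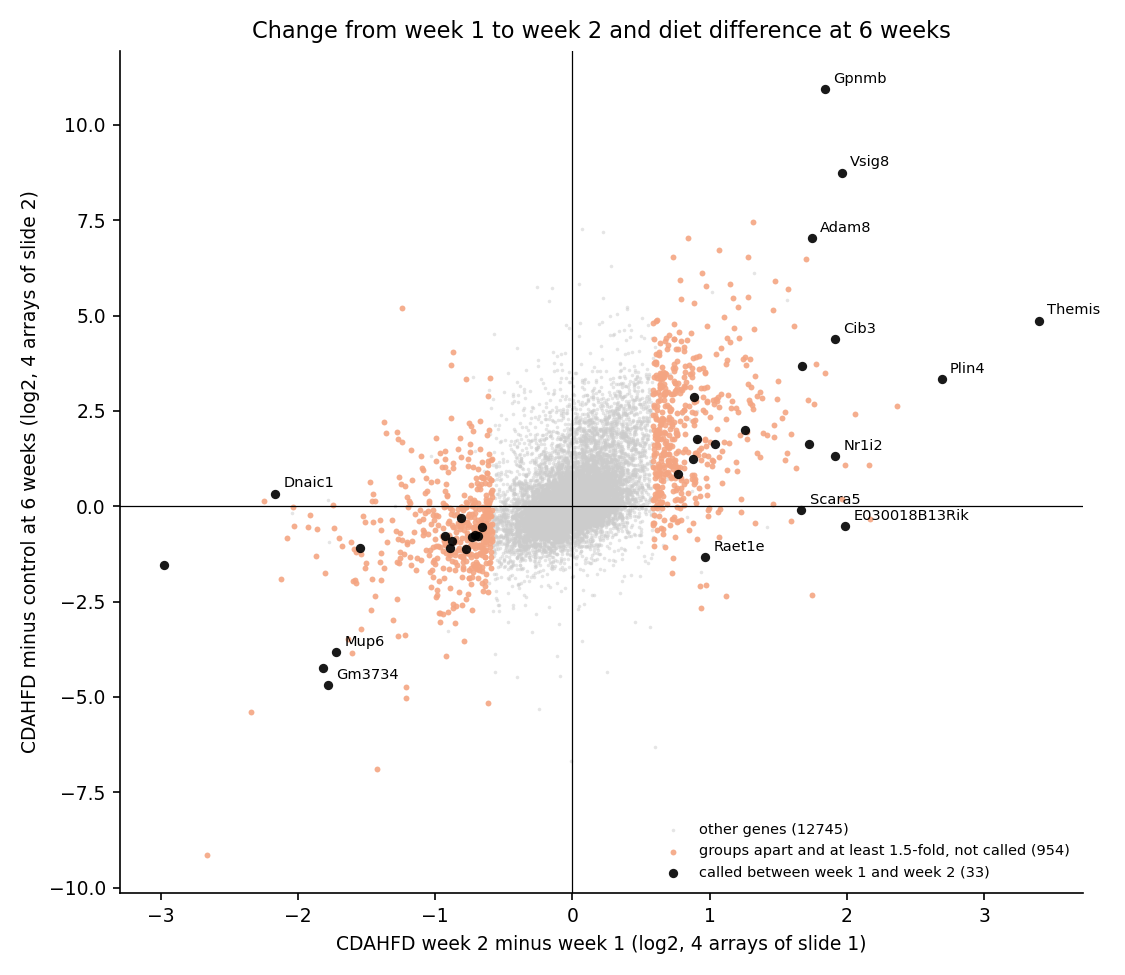
Diet difference at 6 weeks (CDAHFD minus control, log2, vertical axis, 4 arrays of slide 2) against CDAHFD week 2 minus week 1 (log2, horizontal axis, 4 arrays of slide 1), with the 33 called genes in black, genes apart by at least 1.5-fold in orange and others in grey. Of the 33, 29 have the same sign on both axes, and Scara5, Raet1e, E030018B13Rik and Dnaic1 do not. The share over all genes was not computed.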

How the data were processed

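Each deposited file holds linear intensity values of 1 array, from which background and spatial trend had been removed but with no scaling across arrays, per the file headers. These name Agilent Feature Extraction 11.5.1.1 and the submitters' processing notes 10.7. Outlier and control spots were left out and spots of a probe averaged. The deposited well-above-background flags (coded, other unit) set detection. Probes were named through the RefSeq table of GRCm38.p6 by accession: 28664 probes gave 21613 symbols and 27017 stayed unnamed. From log2 processed signals the 75th percentile of the array was subtracted, computed over 20137 reference probes that passed the flag on all 12 arrays. A gene was tested if 1 of its probes passed the flag on both arrays of CDAHFD week 1 or week 2, and read by its brightest such probe, which gave 13732 genes.

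limma 3.58.1 in R 4.3.3 (lmFit, eBayes with trend and robust) fitted 6 group means over 11 arrays, with 5 residual degrees of freedom and Benjamini-Hochberg adjustment. Control week 1 replicate 1, dim in one corner, was left out. The fit was also run on simulated data, with independent noise of the same spread in all groups for a given gene. That setting cannot show how far the calls rest on single arrays, and its outcome is not reported here.

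The members and the 47 lists (1114 symbols, 1032 genes measured) were chosen with earlier results of these data known. Named genes were the 12 largest called differences in each direction with ordinary symbols, genes below background in 1 group, each list's first 3 members and up to 4 more with the smallest p, and the 5 largest changes in each direction in the control comparisons. The other called genes (clone-named or predicted genes, Mfge8, Fmo5 and Txn2) were named after their values were seen, and the 1.5-fold description was also added then. Settings tried were array subsets, scaling, normexp (on median signals, offset 50), filters, probe averaging, eBayes options, the replicate number as a block, a 2-fold minimum and omission of single arrays. No motif or promoter is shown, since the rule for showing them was met by no list. Replicate number and slide row coincided on every array, so what the number marks beyond the row cannot be told. Differences between replicates 1 and 2 correlated over genes between -0.14 and 0.23 over pairs of groups, control week 1 left out. Some results are not reported here.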

Additional observations from a re-analysis of the deposited data

Results flagged for a closer look

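Genes are given here where the test of the difference itself showed that the change from week 1 to week 2 differed between CDAHFD and control livers (limma adjusted p under 0.05). Each value is the change under CDAHFD minus that under control in log2 units, and each rests on the 1 week-1 control array used. Among genes called under CDAHFD the values were 2.94 for Themis, 2.62 for Cib3, 2.31 for Vsig8, 2.00 for Fndc10, 1.69 for Gm11559, 1.62 for Mfge8, 1.21 for Rhbg and 1.16 for Fmo5. All 8 had risen under CDAHFD. Themis and Vsig8 were not above background on any control array used, and Themis not on the week-1 CDAHFD arrays, so these 2 values have no exact size. On the week-1 control array left out, Cib3 read -1.89 against -1.05 on the one used, and -1.75 and -1.77 at control week 2. Fndc10, Mfge8 and Fmo5 also read closer to control week 2 on the array left out. Rhbg (-0.06 against -0.50) and Gm11559 (-4.88 against -5.14) read farther from it.

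Among list members the values were 1.45 for Capg, 1.34 for Acacb, 1.12 for Gstt3 and 0.868 for Ccl9. The change under CDAHFD alone did not pass for these 4.

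For the remaining 9 genes the control change was the larger part. On the control arrays used, Rap2b (3.71), Slc9a7 (3.07), Tbx20 (2.69) and Enpp5 (2.26) read lower at week 2 than at week 1. Mir17hg (-4.02), Col27a1 (-3.26), Col7a1 (-3.07), Bbip1 (-2.87) and Slc25a27 (-2.70) read higher at week 2 on those arrays. In control livers Col27a1, Col7a1, Bbip1 and Slc25a27 were not above background on the week-1 array used, and Rap2b not at week 2. As bounds, the control change was at least 2.37-fold, 1.87-fold, 1.99-fold and 1.88-fold up and at least 2.62-fold down, and the fitted values of these 5 have no exact size. Slc25a27 and Tbx20 were above background on 1 of the 2 week-2 arrays. The CDAHFD differences of the 9 lay between -0.66 (Col27a1) and 0.45 (Rap2b), and none passed. On the week-1 control array left out, Rap2b read -7.26 against -5.28 on the one used, and Mir17hg -7.17 against -6.63. Slc9a7 read -5.88 against -3.24, Tbx20 -5.80 against -3.84 and Enpp5 -2.35 against -0.30. The week-2 control arrays read -6.05 and -5.83 for Slc9a7, -6.30 and -6.11 for Tbx20, and -2.90 and -2.49 for Enpp5. Of the 9 genes, all but Mir17hg read closer to week 2 on the array left out than on the one used. The part of the choice of array in these values was not tested.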

How the results depend on the processing

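The count of 33 genes called between week 1 and week 2 became 81 with only the 7 arrays of slide 1 and 386 with only the 4 CDAHFD arrays of weeks 1 and 2. It became 11 with only the 6 CDAHFD arrays, 64 with normexp, 9 with no filter, 9 without trend and robust, and 19 at a 2-fold threshold. Leaving out 1 array gave 0 to 167, the most without an array of CDAHFD week 6; leaving out CDAHFD week 1 replicate 2 gave 1. The count of 404 in control livers became 1122 with all 12 arrays, 172 with normexp, 249 with the replicate block and 250 at 2-fold, and 195 to 615 with 1 array left out. The count of 75 became 180 with all 12 arrays, 198 on slide 1 and 114 with no filter, and 1 to 226 with 1 array left out. The share of called genes with the same sign at 6 weeks (87.9%) ranged from 75 to 100% with 1 array left out. Each share was taken over the genes called in that fit, not over the 33. The 75% was read without replicate 2 of CDAHFD week 2, and the 100% without replicate 2 of CDAHFD week 1. Few genes were called in these fits. Without replicate 1 of CDAHFD week 2 there was no called gene to take a share of. The range is therefore no measure of the stability of the 87.9%. With the replicate block, 32 genes were called under CDAHFD, 26 of them among the 33, and 55 in the difference of changes. The crossed pairing, added after seeing the data, gave 25 calls.

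The arrays of the 2 weeks do not overlap for called genes, so their signs under other settings are no sign of stability. Normexp gave 0.846 for Themis and -0.883 for 4933405E24Rik, and the mean of its probes gave -0.06 for Mrps14. The median of lipid-associated macrophage markers was 0.626 to 0.753 under other settings and 0.50 to 0.943 with 1 array left out. No scaling moved the median of all genes by over 0.1.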
